A study of Mus musculus with 2 samples.

Results

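Conjugation enzymes attach a polar group to drugs, hormones, bilirubin and reactive metabolites, which makes them easier to excrete. UDP-glucuronosyltransferases (UGTs) sit in the endoplasmic reticulum and transfer glucuronic acid. Glutathione S-transferases (GSTs), cytosolic or bound to membranes, add glutathione to electrophiles. Cytosolic sulfotransferases (SULTs) transfer sulfate to phenols, steroids and bile acids. These families are a large part of the detoxifying capacity of the adult liver. They were described here in the fetal liver, while it is also the site of blood formation.

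The members were the protein-coding genes of the mm10 gene tables whose symbol starts with Ugt1, Ugt2, Ugt3, Gsta, Gstm, Gstp, Gstt, Gsto, Gstz, Gstk, Mgst or Sult. This gave 66 of 21474 protein-coding genes, of 43346 gene rows in all, with 20 UGT, 25 GST and 21 SULT genes. One further annotated gene that meets the rule, Ugt2a1, was not analysed here. Polyadenylated RNA came from C57BL/6J liver at embryonic day 14.5, pooled from littermate embryos of both sexes. The series is 1 group of 2 libraries, replicate 2 and replicate 1, with no treated or mutant arm, so the data give levels and the difference between these libraries. The labels call the libraries biological replicates from littermates and do not say how many embryos each holds. P-values of the exact binomial test below set the difference between these 2 libraries against counting error only. They hold no estimate of the spread between samples.

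The gene tables held 65640933 estimated counts in replicate 2 and 102720920 in replicate 1, and a count of 0 allows up to 0.0457 and 0.0292 CPM in these libraries (3 counts; counting error only). All 8 hepatocyte markers and all 8 red cell markers reached 1 TPM in both libraries, TPM being the authors' abundance in transcripts scaled for length and for the library total. So did every macrophage, megakaryocyte, endothelial, and stellate and mesenchymal marker listed. Of the granulocyte and mast cell markers 5 of 6 did, and of the bile duct markers 1 of 4. Markers of gut were low, with a summed level of 4.61 TPM in replicate 2 and 7.61 TPM in replicate 1. Most of this was Fabp2 (3.77 and 7.21 TPM). Of the pancreas markers, Cpa1 stood at 2.04 and 1.35 TPM, and Pdx1 and Prss1 were at most at 0.04 TPM. The kidney markers Umod and Slc12a1 were at 0 in both, and Pax2 was at 0.02 and 0 TPM. In bulk liver, fewer cells of a type and less RNA per cell cannot be told apart.

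Several members are near copies of each other, and their sequences set what can be read from counts. The 9 Ugt1 genes of chromosome 1 (mm10 88055388 to 88220002, plus strand) each have their own first coding exon (here, first exon), which is spliced to 1 set of shared exons. Their coding sequences therefore differ only in that exon, 849 to 870 coding bases, and share 735 coding bases. Exons upstream of it, as annotated for the Ugt1a6 genes, were not used. The end of each first exon is printed in lower case, with the start of the shared exon, at position 88215044, in capitals. They are shown because reads across this boundary were counted to give the use of each first exon. The sequences are GENCODE M21 transcripts, read 5′ to 3′.
Ugt1a10: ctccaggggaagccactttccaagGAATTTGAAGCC
Ugt1a9: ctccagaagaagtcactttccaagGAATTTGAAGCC
Ugt1a8: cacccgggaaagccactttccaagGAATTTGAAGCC
Ugt1a7c: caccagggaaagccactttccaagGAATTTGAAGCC
Ugt1a6b: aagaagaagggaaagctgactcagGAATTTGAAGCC
Ugt1a6a: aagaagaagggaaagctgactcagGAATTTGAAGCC
Ugt1a5: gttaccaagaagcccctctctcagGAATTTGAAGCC
Ugt1a2: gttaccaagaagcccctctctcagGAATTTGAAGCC
Ugt1a1: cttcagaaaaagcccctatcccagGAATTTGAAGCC
The lines for Ugt1a6a and Ugt1a6b are the same. Their first exons are identical over the last 39 bases and 97.0% identical over the whole coding part, with 26 mismatches. A read of 101 bases that reaches no further back than those 39 bases cannot tell them apart. Ugt1a5 and Ugt1a2 are identical over their last 116 bases, longer than a read, and 81.4% identical over the exon, so a boundary read alone cannot tell them apart either.

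A second such pair lies among the pi-class GSTs. Gstp1 and Gstp2 (chromosome 19, minus strand, 4035407 to 4037985 and 4040285 to 4046023) are 98.1% identical over 630 coding bases, with 12 substitutions. Of these, 6 fall in the first 60 coding bases, printed here with the differing bases in capitals.
Gstp1: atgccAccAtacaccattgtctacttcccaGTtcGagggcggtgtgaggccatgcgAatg
Gstp2: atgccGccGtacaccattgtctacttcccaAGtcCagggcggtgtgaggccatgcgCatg
Counted from the A of the start codon as position 1, the substitutions in this stretch are A6G, A9G, G31A, T32G, G35C and A57C, with the Gstp1 base first. Among other families, Gsta1 and Gsta2 were 97.6% identical, and Ugt2b5 and Ugt2b38 were 97.0% identical. Reads shared by such pairs were divided by estimation, so sums over a family are firmer than the split within a pair.

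GSTs held nearly all of the conjugation enzyme RNA. Their summed level was 1415 TPM in replicate 2 and 1297 TPM in replicate 1, which was 95.4% and 94.3% of the sum over all members. UGTs held 58.34 and 69.53 TPM, or 3.93% and 5.05%, and SULTs held 10.22 and 9.22 TPM, or 0.689% and 0.670%. Both libraries gave the same order of the 3 classes, and each step was larger than the spread between the libraries. The members together made up 0.148% of all TPM in replicate 2 and 0.138% in replicate 1. At 1 TPM or more in both libraries were 28 of 66 members (42.4%), beside 10633 of 21474 protein-coding genes (49.5%). These 28 were 21 of 25 GST genes, 6 of 20 UGT genes and 1 of 21 SULT genes. No count was assigned in either library to 12 members, of which 8 were SULT genes.

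**Figure D1:**
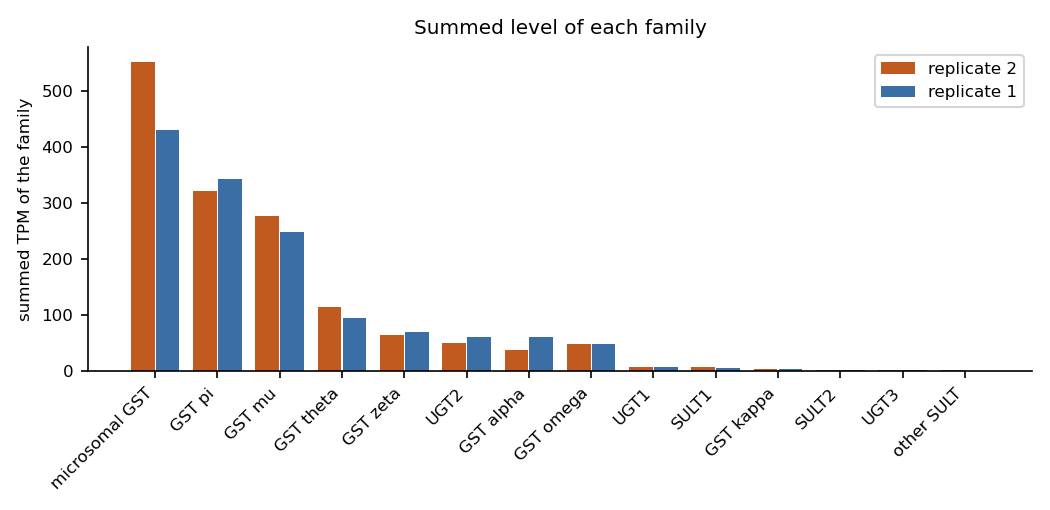
Summed TPM (vertical axis) of each of the 14 families, with replicate 2 on the left of each pair of bars and replicate 1 on the right, in order of level. The microsomal GST family leads in both libraries with 550.4 and 429.5 TPM, and the SULT families lie near 0 on this scale.

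The levels were concentrated in a few genes. The 3 highest members, Mgst3, Gstp1 and Gstm1, held 57.6% of the members' TPM in replicate 2 and 50.5% in replicate 1, and the 9 highest held 87.8% and 84.3%. All 9 were GST genes.

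**Figure D2:**
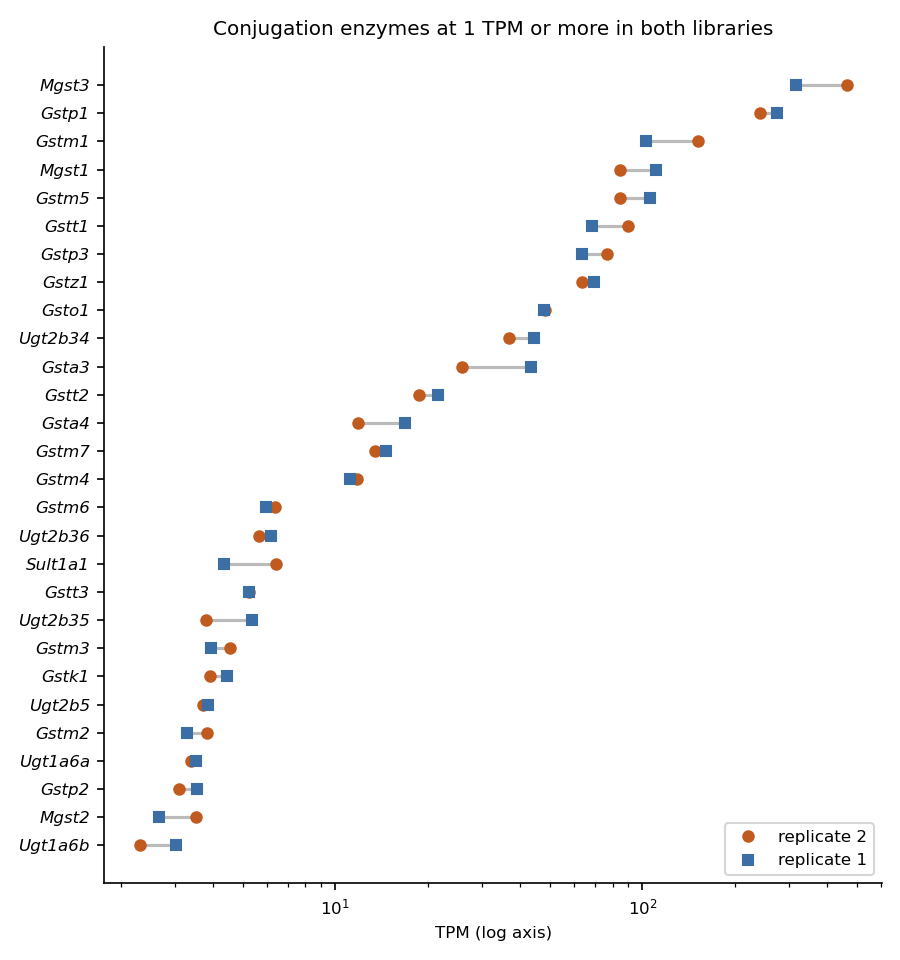
TPM on a log axis of the 28 members at 1 TPM or more in both libraries, circles for replicate 2 and squares for replicate 1, joined by a grey line. Most pairs lie close together, and Mgst3, Gstm1 and Gsta3 are the most separated of the members above 20 TPM.

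Microsomal GSTs, which are membrane proteins unrelated in sequence to the cytosolic classes, were the leading family. Mgst3 (ENSMUSG00000026688, chromosome 1, 167371966 to 167393841, minus strand), which acts as a glutathione transferase and peroxidase on lipids, reached 462.6 TPM in replicate 2 and 316.3 TPM in replicate 1. It ranked 162 among all protein-coding genes by mean level and was the highest member in both libraries. Mgst1 (chromosome 6, 138140316 to 138156755, plus strand), an abundant protein of the adult liver's endoplasmic reticulum and outer mitochondrial membrane, stood at 84.27 and 110.6 TPM. Mgst2, which can make leukotriene C4, was far lower at 3.51 and 2.67 TPM. Coding sequence identity within this family was at most 48.8%, so their reads separate well. The family sum was 490.0 ± 85.5 TPM (SD, n = 2).

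Pi-class GSTs, cytosolic enzymes that handle small electrophiles, were the next family, at 320.6 TPM in replicate 2 and 342.4 TPM in replicate 1. Gstp1 (ENSMUSG00000060803) stood at 240.7 and 275.1 TPM and ranked 221 among protein-coding genes. Gstp3 stood at 76.80 and 63.71 TPM. Gstp2, the near copy of Gstp1 printed above, stood at 3.10 and 3.54 TPM. Pooled over both libraries, annotated introns carried 46239 junction reads for Gstp1, 12386 for Gstp3 and 2403 for Gstp2, and 1679 of the Gstp2 reads lay on a single intron. Both measures put Gstp2 lowest of the 3 genes. In the authors' mm9 gene table Gstp2 was less far below Gstp1, at a mean of 6.37 RPKM for Gstp2, 10.5 RPKM for Gstp3 and 23.7 RPKM for Gstp1. A pseudogene, Gstp-ps, which the rule leaves out, was listed at 1.49 and 1.68 TPM.

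All 7 mu-class genes were expressed. They lie in 1 array of 149 kb on chromosome 3 (107895821 to 108044894), and every one reached 1 TPM in both libraries. Gstm1, the main mu-class enzyme of adult mouse liver, stood at 151.5 TPM in replicate 2 and 103.0 TPM in replicate 1. Gstm5, the only gene of the array on the plus strand, stood at 84.76 and 105.8 TPM. The order of this pair turned between the libraries, since Gstm1 was higher in replicate 2 and Gstm5 marginally higher in replicate 1. Gstm7 (13.51 and 14.62 TPM), Gstm4 (11.74 and 11.15 TPM) and Gstm6 (6.36 and 5.94 TPM) followed, in the same order in both libraries. The remaining members, Gstm2 and Gstm3, had means of 3.55 and 4.25 TPM. The family sum was 276.3 TPM in replicate 2 and 247.8 TPM in replicate 1.

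Theta-class GSTs act on small halogenated compounds. Gstt1 stood at 89.59 TPM in replicate 2 and 68.51 TPM in replicate 1, Gstt2 at 18.73 and 21.55 TPM, and Gstt3 at 5.23 and 5.24 TPM. These 3 genes kept this order in both libraries. Gstt4, in the same 63.3 kb array on chromosome 10, was listed at 0 in both libraries.

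Alpha-class GSTs, prominent in adult liver, had a lower summed level than the theta class in both libraries. The series holds no adult liver to compare with. Gsta3, which in the mouse detoxifies the epoxide of aflatoxin, stood at 25.81 TPM in replicate 2 and 43.26 TPM in replicate 1. Gsta4, which clears the lipid peroxidation product 4-hydroxynonenal, stood at 11.90 and 16.87 TPM. Gsta1 and Gsta2 had means of 0.025 and 0.055 TPM and at most 5 counts in a library. Both expressed genes of the class were lower in replicate 2, and the family sum was 37.76 TPM in replicate 2 and 60.24 TPM in replicate 1.

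The classes with 1 or 2 genes were each led by 1 widely used enzyme. Gstz1, the maleylacetoacetate isomerase of tyrosine breakdown, stood at 63.77 TPM in replicate 2 and 69.57 TPM in replicate 1. Gsto1, a dehydroascorbate reductase, stood at 48.28 and 47.74 TPM, and its scaled counts differed by 0.18 on the log2 scale (0.12 to 0.24). Its neighbour Gsto2 had 0.22 and 0.06 TPM. Gstk1, a GST of mitochondria and peroxisomes, stood at 3.90 and 4.43 TPM.

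Among the UGTs, the Ugt2 family held most of the RNA. Ugt2b34 (ENSMUSG00000029260, chromosome 5, 86889767 to 86906937, minus strand), one of the Ugt2b genes whose products glucuronidate steroids and other lipophilic compounds, stood at 36.82 TPM in replicate 2 and 44.38 TPM in replicate 1. It held 63.1% and 63.8% of all UGT TPM. Ugt2b36 stood at 5.63 and 6.20 TPM. Of the 7 other members, Ugt2b35 (3.80 and 5.36 TPM) and Ugt2b5 (3.71 and 3.84 TPM) were also above 1 TPM, Ugt2b1 had a mean of 0.30 TPM, and the rest were at most at 0.005 TPM. Ugt2a2 and Ugt2b37 were listed at 0. Ugt2b38, which is 97.0% identical to the expressed Ugt2b5, had 0 counts in replicate 2 and 1.09 in replicate 1. The pooled junction table held 735 reads on introns of Ugt2b5 and 0 on those of Ugt2b38. In gene order along chromosome 5 the genes above 1 TPM in both libraries lay within the first 5 of 12 places of the array, and Ugt2b1 was the only one of those 5 below 1 TPM.

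**Figure D3:**
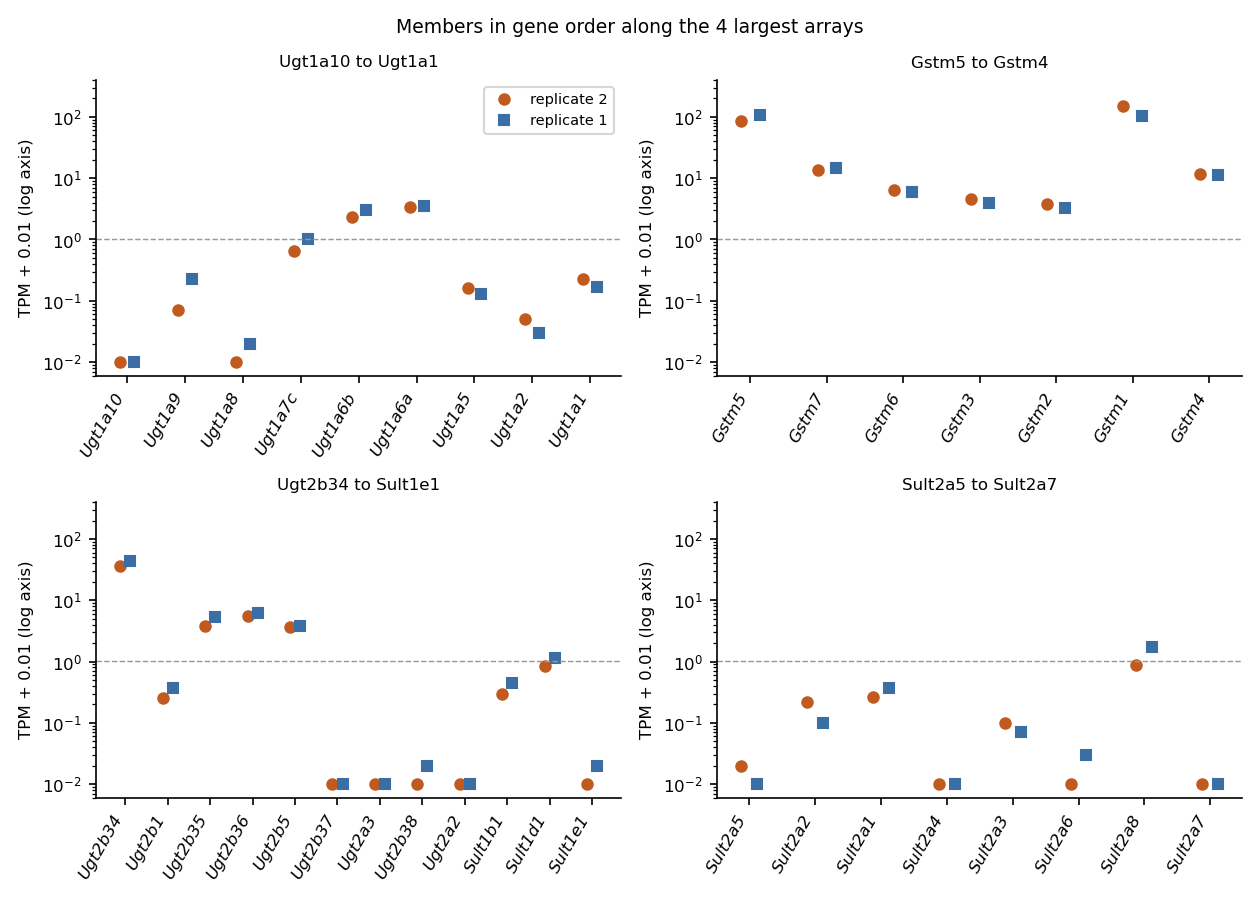
TPM plus 0.01 on a log axis for members in gene order along the 4 largest arrays, circles for replicate 2 and squares for replicate 1, with a dashed line at 1 TPM. All 7 Gstm genes lie above the line, whereas the 12-gene array of Ugt2 and Sult1 genes and the Ugt1 array each hold both expressed genes and genes at or near 0, and in the Sult2a array only Sult2a8 crosses the line, in replicate 1.

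The Ugt1 locus was expressed at a low level, and mainly through its Ugt1a6 first exons. Ugt1a6a, whose human counterpart glucuronidates small phenols, stood at 3.39 TPM in replicate 2 and 3.53 TPM in replicate 1. Ugt1a6b, its near copy, stood at 2.31 and 3.04 TPM. In the authors' mm9 gene table Ugt1a6a had a mean of 1.90 RPKM, Ugt1a6b 0.342 RPKM and Ugt1a10 0.352 RPKM. Ugt1a10 had no count in the mm10 gene tables. Ugt1a1, the enzyme that conjugates bilirubin, stood at 0.22 and 0.16 TPM with 40.93 and 41.59 estimated counts. The family sum was 6.82 TPM in replicate 2 and 8.12 TPM in replicate 1.

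Reads across the boundary printed above gave a count that does not depend on the shared exons. The authors' mm9 junction table, which pools both libraries, held 138 reads from a coding first exon to the shared exon. Ugt1a6a had 73 of them, 52.9% (exact 95% interval 44.2 to 61.4), and Ugt1a6b had 41, 29.7% (22.2 to 38.1). Ugt1a7c followed with 20 reads, 14.5% (9.08 to 21.5). These intervals cover counting error only. The table splits the reads into columns for its replicates, without stating which library each is. Ugt1a6a had 45 and 28 reads in these columns, Ugt1a6b 23 and 18, and Ugt1a7c 17 and 3, so most Ugt1a7c reads came from 1 library. Ugt1a9 had 2 reads, and Ugt1a8 and Ugt1a10 had 1 each. No such read was listed for Ugt1a1, Ugt1a2 or Ugt1a5. For Ugt1a1, 0 of 138 allows a share of up to 2.64% (exact 95% interval). For Ugt1a2 and Ugt1a5 the 0 sets no limit, because a boundary read alone cannot tell them apart. The order of Ugt1a6a, Ugt1a6b and Ugt1a7c was the same in both columns, and the identical 39 bases limit the split between the Ugt1a6 pair. Transcript TPM grouped by first exon gave Ugt1a6a 51.6% in replicate 2 and 43.9% in replicate 1, and Ugt1a6b 34.5% and 37.8%. Ugt1a1 had 3.29% and 1.99% by this measure, on either side of the 2.64% that its 0 junction reads allow.

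**Figure D4:**
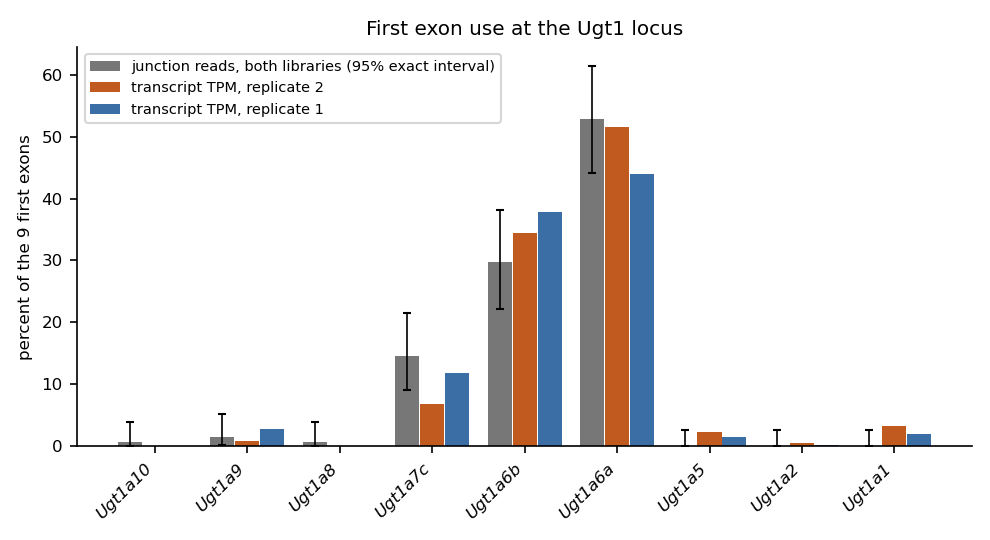
Percent of first exon use at the Ugt1 locus for its 9 genes in genome order. Grey bars are junction reads pooled over both libraries with exact 95% intervals, and the coloured bars are transcript TPM in replicate 2 (orange) and replicate 1 (blue). By each measure drawn Ugt1a6a is highest and Ugt1a6b next.

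The Ugt3 genes were below 1 TPM. Ugt3a1, which uses UDP-N-acetylglucosamine in humans, stood at 0.87 TPM in replicate 2 and 0.85 TPM in replicate 1, and Ugt3a2 at 0.45 and 0.41 TPM. The pair kept this order in both libraries.

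Sulfotransferases were low or listed at 0. Sult1a1 (chromosome 7, 126672865 to 126676432, minus strand), the phenol sulfotransferase, was the only one at 1 TPM or more in both libraries, reading 6.41 TPM in replicate 2 and 4.34 TPM in replicate 1. Sult1d1, a mouse sulfotransferase of catecholamines, stood at 0.85 and 1.12 TPM. Of the 4 other Sult1 genes, Sult1c1 and Sult1c2 were listed at 0, Sult1e1, the estrogen sulfotransferase, had 0 and 1 counts, and Sult1b1 had a mean of 0.36 TPM.

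The Sult2 genes, which sulfate steroids and bile acids in adult liver, summed to 1.5 TPM in replicate 2 and 2.57 TPM in replicate 1. Sult2a8, a bile acid sulfotransferase in the mouse, led them with 0.88 and 1.71 TPM, and Sult2a1 followed with 0.25 and 0.36 TPM. Sult2a4 and Sult2a7 were listed at 0. The 4 further Sult2a genes had means of 0.005 to 0.15 TPM. Outside these families Sult5a1 stood at 1.04 and 0.71 TPM, and Sult3a1, Sult3a2, Sult6b1 and Sult6b2 were listed at 0.

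The libraries were then compared gene by gene. The question was which members differed between these 2 libraries beyond counting error. With an exact binomial test of the counts, Benjamini-Hochberg adjustment and a threshold of 2-fold, 4 of 46 members with at least 10 counts were called, where 1491 of all 17906 genes tested were called (8.33%). The other 20 members had too few counts, 12 of them none. Of the 29 members whose mean reached 1 TPM none was called, nor with DESeq2 size factors or by edgeR's exact test, whereas 22 had an unadjusted p under 0.05 in the exact binomial test. Spike-in library sizes called 4 of the 29, where they called 3887 of all 17906 genes tested. In the main test, without spike-in sizes, 1.84% of the 10899 protein-coding genes of that level were called.

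All 4 called members had few counts. Gsto2, a relative of Gsto1, had 22 counts in replicate 2 against 9 in replicate 1, which was a log2 difference of 1.89 (95% interval 0.76 to 3.24, adjusted p = 7.86e-04). Sult4a1, a sulfotransferase relative of the brain, had 26 and 11 counts (1.85, 0.82 to 3.05, adjusted p = 3.28e-04). Sult2b1, which sulfates cholesterol and pregnenolone, had 5 and 25 counts (-1.56, -3.42 to -0.26, adjusted p = 0.0241). Ugt1a9 had 11.79 and 54.56 estimated counts (-1.5, -2.58 to -0.63, adjusted p = 8.14e-04). These are estimates among genes that share exons, and only 2 junction reads joined its first exon to them. The authors' TPM intervals of the libraries overlapped for Sult2b1 (0.081 to 0.536 in replicate 2, 0.258 to 0.699 in replicate 1). They were apart for Gsto2, Sult4a1 and Ugt1a9. Gsto2 and Sult4a1 were thus higher in replicate 2, and Sult2b1 and Ugt1a9 lower. Spike-in library sizes ended the calls of Sult2b1 and Ugt1a9, and a minimum of 10 counts in each library left Gsto2 and Sult2b1 untested. None of the 4 was called by edgeR's exact test with a common dispersion, which also allows for spread beyond counting error. It gave 3 of the 46 members an unadjusted p under 0.05. That dispersion was estimated from these same 2 libraries treated as 1 group. The differences tested thus also set the spread allowed for, so the lack of calls is not an independent check.

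Of 49 cell type markers tested, 4 were called between these libraries, beside 8.33% of all genes tested. They were in the gut list and the granulocyte and mast cell list, and no marker of the other lists was called. Of the gut markers, Cdx1 had 0.18 TPM in replicate 2 and 0.01 TPM in replicate 1, and Cdx2 had 0.08 and 0.01 TPM, both called, while Vil1 (0.58 and 0.38 TPM) and Fabp2 (3.77 and 7.21 TPM) were not. Of the 6 granulocyte and mast cell markers, S100a8 (-1.28 on the log2 scale) and Mcpt8 (-2.38) were called lower in replicate 2, while Mpo (0.51), Elane (0.41) and Prtn3 (0.45) were higher and Cpa3 (-0.59) lower without reaching 2-fold. The part of such cells in the calls of the conjugation enzymes was not tested.

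With no fold threshold 28 of the 46 members tested passed an adjusted p of 0.05, beside 60.8% of all genes. Of these members 19 were higher and 9 lower in replicate 2, beside 5429 higher and 5457 lower over all genes. Among the highest members, Mgst3 had 36370 counts in replicate 2 against 35291 in replicate 1, which made a log2 difference of 0.69 (0.67 to 0.71) once scaled to library size. Gstm1 had 13140 and 13600 counts (0.60, 0.56 to 0.63) and Gstt1 6506 and 7106 counts (0.52, 0.47 to 0.57). These 3 were higher in replicate 2. Gsta3 had 2553 and 5419 counts (-0.44, -0.51 to -0.37) and Gsta4 771 and 1584 counts (-0.39, -0.52 to -0.27), both lower in replicate 2. Gstp1, with 10834 and 18890 counts, differed by -0.15 (-0.19 to -0.12). Ugt2b34, with 10104 and 16025 counts, differed by -0.02 (-0.05 to 0.02, adjusted p = 0.447 by the exact binomial test). These values are relative to the median of all genes, which scaling to the spike-ins moves by 0.65 on the log2 scale.

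TPM and counts did not always give the same direction. The TPM of protein-coding genes had a median log2 difference of -0.23 between replicate 2 and replicate 1, and the same 29 members had a median of -0.11. Relative to -0.23, the TPM difference and the count difference had opposite signs for 5 of these 29 members, namely Mgst1, Gstt2, Gstk1, Gstp1 and Gstp2. For all of these but Mgst1 the TPM difference was only 0.03 to 0.05 above that median. For Gstt2, Gstk1, Gstp1 and Gstp2 the authors' estimation gave shorter effective lengths in replicate 2. They were 1068, 628, 455 and 468 nt there, and 1157, 717, 544 and 557 nt in replicate 1. The part of length in these signs was not tested. Mgst1 was the member whose TPM difference fell furthest below its count difference. Its counts, 6964 and 9690, were higher in replicate 2 once scaled (0.17), while its TPM less the median was lower (-0.16). The effective length that the authors' estimation gave the gene was 836 nt in replicate 2 and 694 nt in replicate 1.

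The transcript tables showed the same split within genes. For Mgst1, the transcript of 1167 nt took 94.88% of the gene's TPM in replicate 2 and 56.84% in replicate 1. A short transcript of 559 nt took 4.66% and 42.38%. For Sult1a1, the transcript of 1289 nt took 44.93% and 83.81%, and one of 622 nt took 40.13% and 5.67%. The short transcript was thus high in replicate 1 for Mgst1 and in replicate 2 for Sult1a1. The longest coding transcript of Gsta3 took 72.45% and 56.25%, and that of Gstm1 took 82.74% and 95.11%. Of 19 members with several transcripts and a mean of 1 TPM or more, 10 had every share within 5 points between the libraries, and none had a different leading transcript. The mean fragment length implied by the tables was 303 nt in replicate 2 and 214 nt in replicate 1. Its part in these shares was not tested.

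**Figure D5:**
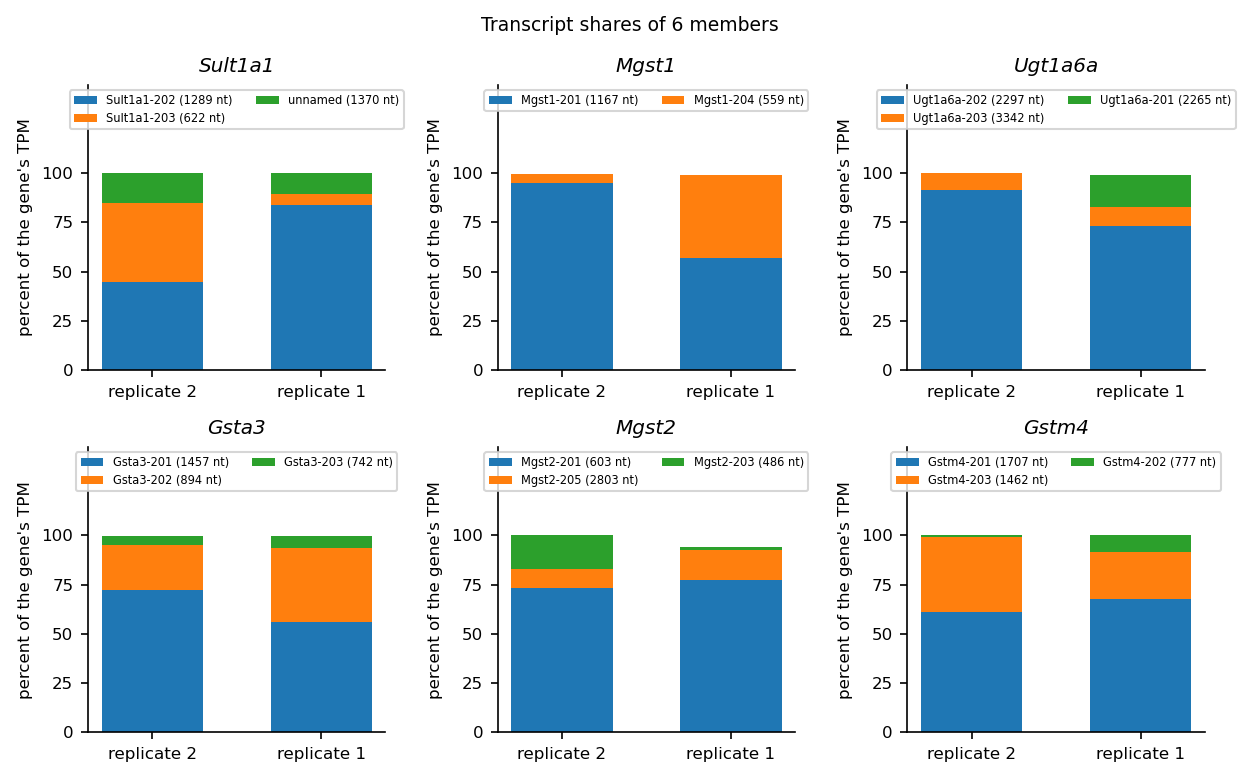
Percent of a gene's TPM (vertical axis) held by each transcript, with replicate 2 on the left and replicate 1 on the right, for the 6 members whose shares differed most; transcripts with summed shares under 4 points are not drawn. Mgst1 and Sult1a1 differ most, each by over 38 points for its leading transcript.

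Genes that supply or act beside the conjugation enzymes were mostly expressed. Of 68 such genes found, 48 reached 1 TPM in both libraries. Between the libraries 3 of 64 tested (Ggt6, Dpep1 and Gdap1, all below 0.2 TPM) were called, beside 8.33% of all genes tested. For glucuronidation, Ugp2, which makes UDP-glucose, stood at 7.01 TPM in replicate 2 and 11.67 TPM in replicate 1, and Ugdh, which oxidises it to UDP-glucuronate, at 5.41 and 7.89 TPM. For sulfation, Papss1, which makes the sulfate donor, stood at 4.78 TPM in replicate 2 and 6.02 TPM in replicate 1, and its relative Papss2 at 2.09 and 2.74 TPM. For glutathione synthesis, Gclm, the modifier subunit of the rate-limiting ligase, stood at 97.28 and 120.2 TPM, its catalytic partner Gclc at 23.77 and 29.07 TPM, and Gss at 33.72 and 34.21 TPM. The glutathione peroxidase Gpx1 reached 3055 and 3555 TPM. Among factors known to induce conjugation genes, Nfe2l2 stood at 24.42 and 29.15 TPM, the xenobiotic receptor Ahr at 1.29 and 1.40 TPM, and its nuclear receptor counterpart Nr1i2 at 3.55 and 3.91 TPM.

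Promoters of 58 members were in the RefSeq table (GRCm38.p6), as 70 windows from 250 bases before to 50 bases after a start. The letters TGACNNNGC, the core of the antioxidant response element, were searched on both strands and found for Gsta3, Gstm5, Gstm7 and Mgst1, in 5.71% of the members' windows and 12.4% of all 32851 windows. All 4 were at 1 TPM or more in both libraries. The AP-1 letters TGAGTCA were in 12.9% of the members' windows and 5.2% of all windows. They occurred for 9 members, of which Gstp1, Gstp2, Gstm5 and Mgst2 were at 1 TPM or more in both libraries, and Sult1b1, Sult1c1, Sult2b1, Ugt2a2 and Ugt2b37 were not. These motifs were picked after the promoters had been searched, neighbouring copies share sequence, and a match does not show binding. The 150 bases before the start of Gsta3 (chr1:21240435-21240584, plus strand) are printed as the example, with the TGACNNNGC match, 121 to 113 bases before the start, in capitals.
Gsta3: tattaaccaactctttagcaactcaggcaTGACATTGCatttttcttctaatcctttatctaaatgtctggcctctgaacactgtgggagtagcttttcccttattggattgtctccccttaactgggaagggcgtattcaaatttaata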

How the data were processed

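Both libraries were stranded and paired-end, per the labels. The authors deposited estimated counts (expected counts), TPM and FPKM per mm10 gene and transcript, made from alignments to the transcriptome with annotation M4, per the deposited notes. The deposited transcript tables also give the percent of a gene's abundance per transcript. The authors deposited mm9 gene and exon tables (RPKM) and a junction table with read counts and an irreproducible discovery rate, a quantity of the kind of a p-value that is low where replicates share a junction. Which mm9 replicate is which library is not stated, so their mean or sum was used. No source used here names the aligner or the quantifier.

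Symbols came from GENCODE M21. Expected counts were rounded. An exact conditional binomial test, two-sided, compared them given TMM library sizes from edgeR 4.0.16, with Benjamini-Hochberg adjustment over genes of at least 10 counts in total; calls needed adjusted p under 0.05 and 2-fold, with 0.5 added to counts for fold changes. The test compares these libraries, not conditions. TPM ratios added 0.01. Coding sequences were aligned globally with Biopython 1.88. One regulator and one motif are not reported here. Members, motifs and lists were chosen with earlier results of these data known. Named members are those whose mean reached 5 TPM, the 2 highest of each family, and called ones, 32 in all; members at 0 are also listed, and Mgst2, Gstm2, Gstm3, Gstp2, Ugt2b35, Ugt2b5, Ugt2b38, Ugt2b1, Ugt1a1, Ugt1a7c, Gsta1, Gsta2, Sult1b1 and Sult1e1 and other first-exon genes were named after their values were seen. Left out of library sizes were the spike-ins, which took 1.82% of replicate 2 and 2.84% of replicate 1, the phiX rows (0.0857%, 0.0764%) and 26248 numeric-identifier rows. Alternatives covered scaling (DESeq2 1.42.0 size factors, total counts, spike-ins), minimums, units, the mm9 tables and single libraries.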

Additional observations from a re-analysis of the deposited data

How the results depend on the processing

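The count of called genes was 1491 and that of called members 4. They became 3887 and 12 with spike-in library sizes, and 833 and 2 with at least 10 counts in each library. With no fold threshold they were 10886 and 28, and with edgeR's exact test 244 and 0. The dispersion of that exact test came from these same 2 libraries. The 12 of 46 members called under spike-in scaling were all higher in replicate 2. So were 3605 of the 3887 genes called under it, out of 17906 tested. DESeq2 size factors, total counts and no count minimum left 4 members called. With a minimum of 5 TPM, 18 members and 30 partner genes passed, against 28 and 48 at 1 TPM. From a single library, 29 and 31 members and 50 and 50 partners passed. The GST class held 94.8% of the members' level on TPM and FPKM, 90.3% in the mm9 table, and 94.3% to 95.4% in single libraries. The mm9 table moved the share of 11 of 32 named members by over 1.5 times, Gstp1 among them (9.27% against 18.1%); the cause was not tested. Gstm1 over Gstm5, 0.42 on the log2 scale, was -0.04 without replicate 2 and 0.84 without replicate 1. No other order of the leading pair of a family turned under the alternatives run. The Ugt1a6a share of junction reads was 54.5% with an irreproducible discovery rate of at most 0.1 and 47.7% by transcript TPM. No paired analysis was possible because the series has 1 group. Leaving out a library is not possible for the comparison of the 2 libraries. Depth limits members under 10 counts, which were not tested.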
